A study of Homo sapiens with 18 samples.

Results

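The heterogeneous nuclear ribonucleoproteins (hnRNPs) are described here as 10 human genes, HNRNPD, HNRNPDL, HNRNPH1, HNRNPK, HNRNPL, HNRNPM, HNRNPR, HNRNPU, HNRNPUL1 and HNRNPUL2, chosen by symbol from the 57905 genes counted in each library. RNA selected for poly(A) tails was sequenced from 2 established human plasma cell lines, KMS12-BM (labelled as multiple myeloma) and JJN3 (labelled as plasma cell leukemia). There were 6 groups of 3 libraries: KMS12-BM with 0.1 mM amiloride for 24 h, JJN3 with 0.4 mM amiloride for 24 h, KMS12-BM and JJN3 each with 0.4 mM TG003 for 24 h, and both lines labelled as untreated (DMSO), with no duration. Amiloride, a potassium-sparing diuretic, acts on the epithelial sodium channel and on sodium-proton exchange, and TG003 inhibits the CLK kinases, which phosphorylate SR splicing factors. No label gives the culture behind a library, so the replicates may be technical and the p-values measure only the spread among these libraries.

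The hnRNPs coat nascent transcripts in the nucleus and take part in splicing, export, stability and translation of messenger RNA. They often oppose SR proteins at the same exons, and several of them regulate the splicing of their own transcripts and of each other's. Protein and splicing were not measured here: the values are reads per gene, over all isoforms.

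Libraries held 23707695 to 50570234 reads in genes. The 10 genes held 0.554% to 0.622% of these reads in the 6 amiloride libraries, 0.484% to 0.571% in the 6 TG003 libraries and 0.447% to 0.511% in the 6 DMSO libraries. The TG003 libraries stood apart in how reads were placed. Processed pseudogenes, genomic copies of spliced messengers, held 0.106% to 0.130% of the reads in genes there and 4.50% to 5.63% in the other 12 libraries, and 7.79% to 9.12% of records had no unique position in TG003 libraries, against 13.3% to 17.4% in the other 12. All 9 plasma cell markers examined exceeded 1 CPM (counts relative to the TMM-scaled library size) in every group except KMS12-BM with TG003, where 8 did. Their summed level in KMS12-BM was 2948 to 3285 CPM with amiloride, 994 to 1069 CPM with TG003 and 2269 to 2390 CPM with DMSO. IRF4 was its largest part, with a mean of 2072, 461 and 1154 CPM in that order. The markers did not move together with amiloride there. XBP1 also rose (499 CPM against 296 with DMSO), but MZB1 (80.8 against 321), POU2AF1 (164 against 226) and SDC1 (2.56 against 13.5) fell. In JJN3 the sum was 4797 to 5550 CPM with amiloride, 2673 to 2957 CPM with TG003 and 5239 to 5511 CPM with DMSO. JCHAIN was its largest part in JJN3, with a mean of 2942, 1238 and 2577 CPM in that order. In JJN3, too, the markers did not move together with amiloride. CD38 also had a higher mean than with DMSO (5.91 against 4.36 CPM), but all the other markers had a lower one. Among these were MZB1 (101 against 206.5), POU2AF1 (556 against 716) and XBP1 (355 against 444). The part of these shifts in the results below was not tested. Of 15 markers of other cell types, 2 to 4 exceeded 1 CPM in a group, and MPO and DCN had 0 reads in all 18 libraries. EPCAM had a mean of 156, 107.5 and 113 CPM in KMS12-BM with amiloride, TG003 and DMSO, and 36.1, 20.5 and 24.6 in JJN3. In the same order, KRT8 had 6.11, 28.4 and 28.1 CPM in KMS12-BM, and HBB had 51.8, 24.7 and 60.2 in JJN3. Apart from these, no marker of other cell types had a mean over 1.72 CPM in a group. In bulk RNA, fewer cells of a kind and less RNA per cell cannot be told apart.

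Of the 10 genes, all but HNRNPUL1 and HNRNPUL2 have pseudogenes named after them. HNRNPKP4, a processed pseudogene on chromosome 3 (96068398 to 96069783), matches HNRNPK over 1385 bases at 96.6% identity, with a longest identical run of 99 bases. HNRNPLP2, on chromosome 15 (34781203 to 34782772), is annotated as an unprocessed pseudogene and matches HNRNPL over 1561 bases at 97.4%, with an identical run of 201 bases. HNRNPUP1, on chromosome 14 (43769466 to 43769798), matches HNRNPU over 328 bases at 97.0%. HNRNPRP1, on chromosome 10 (21913521 to 21915215), matches HNRNPR over 1688 bases at 94.2%. All coordinates are GRCh37. The windows printed next show how little can separate gene and copy where a read crosses a splice junction, because the copies have no intron there. For each gene shown, the window is an aligned junction with the fewest differences from the copy. Each joins the last 50 bases of 1 coding exon to the first 50 of the next, on the transcript strand, above the matching 100 bases of the copy; capitals mark the bases that differ.
HNRNPK, exons 4 and 5 joined: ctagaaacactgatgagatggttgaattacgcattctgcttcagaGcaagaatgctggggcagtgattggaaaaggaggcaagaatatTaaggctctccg
HNRNPKP4: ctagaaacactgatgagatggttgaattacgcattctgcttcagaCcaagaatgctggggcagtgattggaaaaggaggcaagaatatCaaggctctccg
HNRNPL, exons 6 and 7 joined: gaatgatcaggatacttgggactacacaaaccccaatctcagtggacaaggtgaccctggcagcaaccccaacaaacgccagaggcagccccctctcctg
HNRNPLP2: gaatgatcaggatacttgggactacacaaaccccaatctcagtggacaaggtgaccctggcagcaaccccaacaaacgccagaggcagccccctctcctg
HNRNPU, exons 12 and 13 joined: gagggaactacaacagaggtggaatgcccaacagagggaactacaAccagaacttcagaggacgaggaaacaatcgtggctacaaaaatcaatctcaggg
HNRNPUP1: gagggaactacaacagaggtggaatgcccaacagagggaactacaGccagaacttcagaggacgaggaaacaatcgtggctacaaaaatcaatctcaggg
The HNRNPK window comes from chr9:86592604-86592653 and chr9:86591917-86591966 on the minus strand, and its copy from chr3:96068504-96068603 on the plus strand, with 2 differences. Over the 9 such junctions of HNRNPK that could be aligned, 2 to 5 bases differed. The HNRNPL window comes from chr19:39334482-39334531 and chr19:39331150-39331199, and its copy from chr15:34782039-34782138, all on the minus strand. These 100 bases were identical, and 0 to 3 bases differed over 9 junctions. The HNRNPU window comes from chr1:245018726-245018775 and chr1:245018297-245018346 on the minus strand, and its copy from chr14:43769626-43769725 on the plus strand, with 1 difference. Over 2 such junctions of HNRNPU, 1 to 2 bases differed. Over 5 junctions of HNRNPR and HNRNPRP1, which are not printed, 0 to 8 bases differed.

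Reads given to these copies were frequent in DMSO and amiloride libraries and close to 0 with TG003. HNRNPKP4 had 0 to 2 reads per library in the 6 TG003 libraries, 5668 to 14841 in the 6 amiloride libraries and 5112 to 11403 in the 6 DMSO libraries. HNRNPLP2 had 0 to 25 reads with TG003, 5305 to 8692 with amiloride and 4703 to 8622 with DMSO. HNRNPUP1 had 0 reads in every TG003 library, which allows up to 3, against 563 to 1596 with DMSO. In DMSO libraries, named copies held 24.8% to 30.3% of the reads of HNRNPK and its copies, 35.7% to 41.4% for HNRNPL, 2.83% to 4.26% for HNRNPR and 3.04% to 4.53% for HNRNPU. With TG003 they held at most 0.0831% for HNRNPK, 0.190% for HNRNPL and 0.00755% for HNRNPR. For HNRNPD, HNRNPDL, HNRNPH1 and HNRNPM, the share in copies was at most 1.02% in any library. Read placement and TG003 treatment coincide in all 6 libraries and cannot be told apart, for any of the 10 genes. Each TG003 result of HNRNPK, HNRNPL, HNRNPR and HNRNPU is therefore given as counted and with the reads of all named pseudogenes added to the gene. Besides these copies, HNRNPU shares 4281 exonic bases with genes on the other strand, COX20 among them, and HNRNPL shares 561 with ENSG00000268083 on its own strand; the strand setting of the counting is not stated, so reads there are uncertain.

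**Figure D1:**
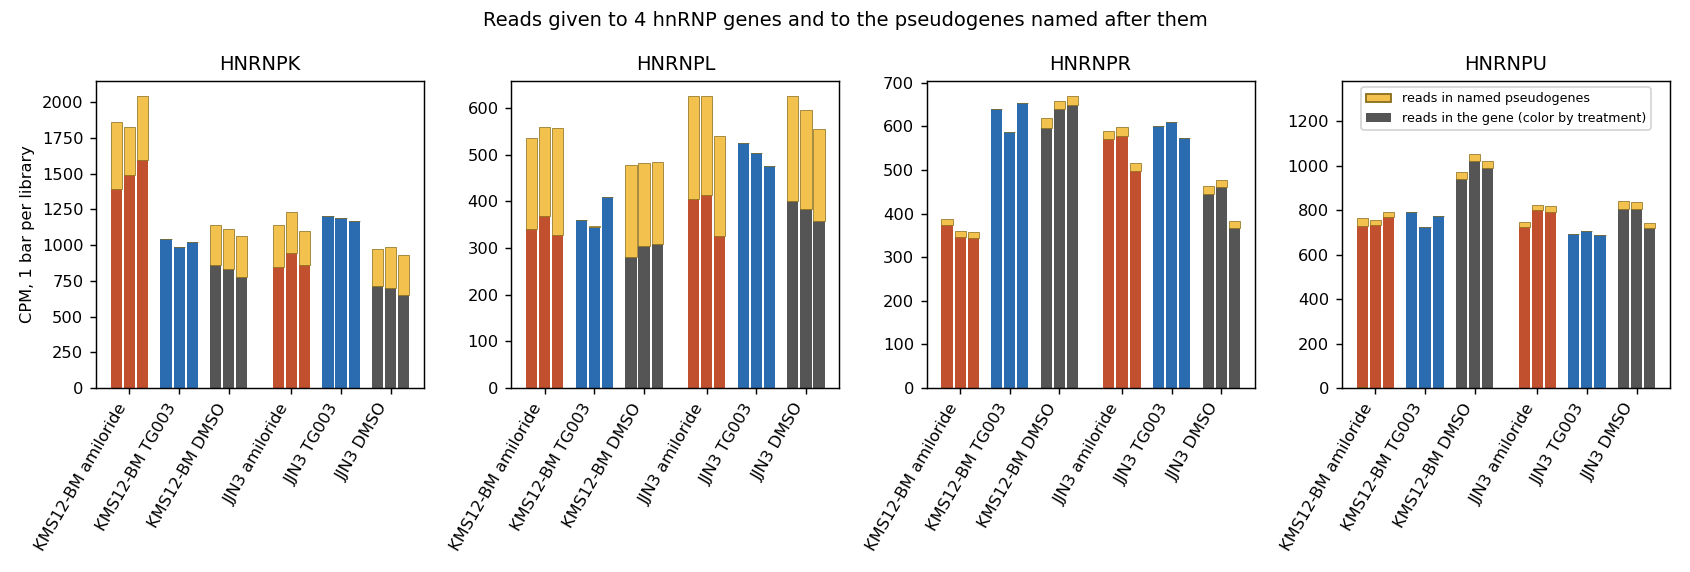
CPM in each of the 18 libraries for HNRNPK, HNRNPL, HNRNPR and HNRNPU (1 bar per library, colored by treatment) with the CPM of the pseudogenes named after each gene stacked on top in yellow. The yellow part is absent or too thin to see in the 6 TG003 libraries and with DMSO averages 284 CPM in KMS12-BM and 276 CPM in JJN3 for HNRNPK; as a share of the stack it is largest for HNRNPL, at 35.7% to 41.4% with DMSO.

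With DMSO alone, the mean levels of the 10 genes ranged from 25.9 to 285 CPM per kilobase of canonical transcript. HNRNPK, a KH-domain protein that binds C-rich RNA (chromosome 9, 86582998 to 86595546, minus strand), was highest in both lines, at 285 ± 14.8 CPM per kb in KMS12-BM and 238 ± 11.8 in JJN3 (SD, n = 3). HNRNPH1, which binds runs of G (chromosome 5, 179041179 to 179061785), was second at 236 ± 5.33 CPM per kb in KMS12-BM and 236 ± 16.4 in JJN3; in JJN3 it was within the spread of HNRNPK. HNRNPUL2 (chromosome 11, 62480102 to 62494929) was lowest, at 37.3 ± 1.54 CPM per kb in KMS12-BM and 25.9 ± 0.892 in JJN3. Between these, the order in KMS12-BM was HNRNPM, HNRNPU, HNRNPL, HNRNPUL1, HNRNPD, HNRNPR and HNRNPDL, in which HNRNPU and HNRNPL, HNRNPUL1 and HNRNPD, and HNRNPR and HNRNPDL were closer than the larger of their 2 SDs. In JJN3 it was HNRNPD, HNRNPL, HNRNPM, HNRNPUL1, HNRNPDL, HNRNPU and HNRNPR, in which the same held for HNRNPM and HNRNPUL1. The length used changes this order: per kilobase of all annotated exons together, HNRNPK stayed first and HNRNPUL2 last with DMSO in both lines, while HNRNPH1 ranked 6 in KMS12-BM and 7 in JJN3. The copies change it too: with named pseudogenes added, HNRNPL was at 225 ± 1.28 CPM per kb of canonical transcript in KMS12-BM, in rank 3, and at 276 ± 16.2 in JJN3, in rank 2 and above HNRNPH1.

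**Figure D2:**
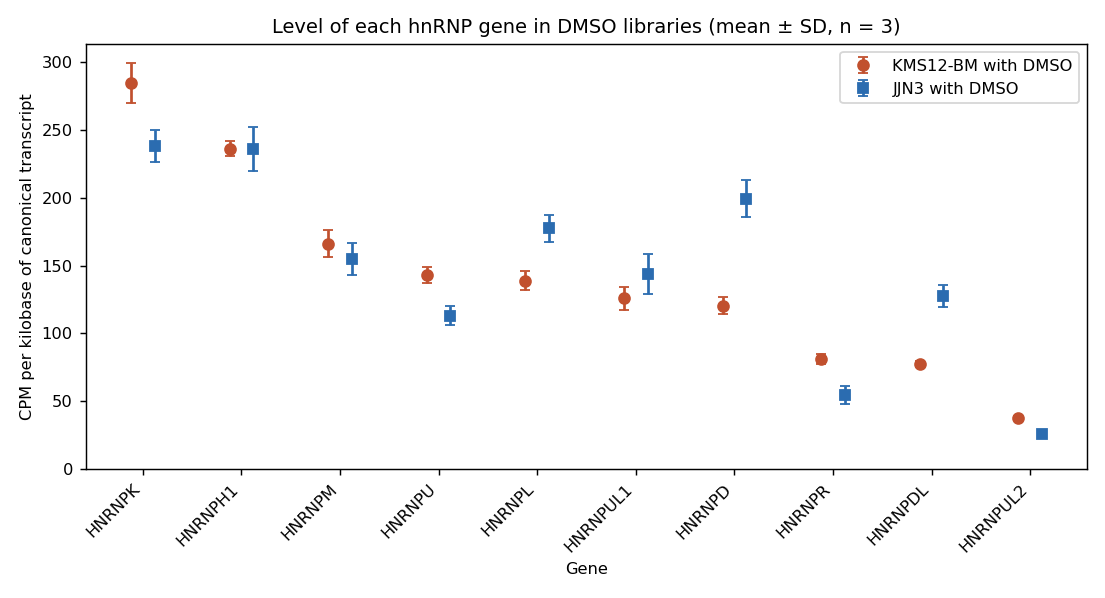
Level of each gene in DMSO libraries in CPM per kilobase of the canonical transcript (mean ± SD, n = 3), KMS12-BM (circles) left of JJN3 (squares). HNRNPK is highest and HNRNPUL2 lowest in both lines, and HNRNPD and HNRNPDL lie higher in JJN3.

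KMS12-BM was set against JJN3 with DMSO to show where the lines differ without drug. Of the 10 genes, 4 were higher and 4 lower in KMS12-BM by edgeR's quasi-likelihood test (Benjamini-Hochberg adjusted p under 0.05), where 76.0% of 17772 genes tested were called (36.8% higher, 39.3% lower). The pair of AU-rich element binding proteins was lower in KMS12-BM. HNRNPD, known as AUF1 (chromosome 4, 83273651 to 83295656), had 347, 380 and 381 CPM in KMS12-BM and 654, 612 and 569 CPM in JJN3 (log2 fold change -0.71 ± 0.09, SE, edgeR adjusted p = 2.86e-07). Its close paralog HNRNPDL, on the same strand of chromosome 4 (83343718 to 83351615), had 338, 329 and 348 CPM in KMS12-BM and 600, 532 and 542 CPM in JJN3 (-0.71 ± 0.08, edgeR adjusted p = 4.55e-08). For both genes every KMS12-BM library lay under every JJN3 library. The share of all genes whose groups do not overlap was not counted, so lack of overlap is only a description, here and below. HNRNPL was lower by a log2 fold change of -0.34 ± 0.09, and HNRNPUL1 by -0.18 ± 0.08 with overlapping libraries (edgeR adjusted p = 0.0427). HNRNPR was higher in KMS12-BM (0.58 ± 0.08), as were HNRNPUL2 (0.54 ± 0.07), HNRNPU (0.35 ± 0.06) and HNRNPK (0.27 ± 0.07). HNRNPH1 (0.02 ± 0.07) and HNRNPM (0.12 ± 0.08) were not called. The HNRNPUL1 call was lost with upper-quartile scaling (edgeR adjusted p = 0.105), without a filter (0.0700) and with the compared groups alone (0.111). Scaling without mitochondrial genes, processed pseudogenes and the 10 most abundant genes also ended it (edgeR adjusted p = 0.05115, or 0.05098 with pseudogenes added). It was lost too without KMS12-BM DMSO replicate 2 or 3 or JJN3 DMSO replicate 1 or 2 (edgeR adjusted p = 0.0618 to 0.258).

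Amiloride was set against DMSO in KMS12-BM to show what 0.1 mM of the drug changed in this line. Of the 10 genes, 6 rose, 2 fell and 2 were not called, with a median log2 fold change of 0.23 against -0.02 over all genes; 68.7% of the 15765 genes tested were called, 33.5% higher and 35.2% lower. HNRNPUL2, HNRNPK and HNRNPH1 rose most, HNRNPR and HNRNPU fell, and HNRNPD and HNRNPUL1 did not pass the test. With a GC trend removed, HNRNPM (0.59) passed HNRNPK (0.55) and HNRNPH1 (0.20), and HNRNPUL1 (0.36) also passed HNRNPH1.

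Among the hnRNPs that bind defined sequence classes, HNRNPK had 1394, 1489 and 1594 CPM in KMS12-BM with amiloride and 861, 834 and 777 CPM with DMSO. All 3 amiloride libraries lay above all DMSO libraries, a log2 fold change of 0.86 ± 0.07 (1.82-fold, edgeR adjusted p = 1.12e-06), or 0.80 ± 0.07 with its pseudogenes added. HNRNPH1 had 738, 779 and 902 CPM with amiloride and 516, 534 and 539 CPM with DMSO, again without overlap (0.61 ± 0.08, edgeR adjusted p = 2.22e-05). HNRNPL, which binds CA repeats (chromosome 19, 39327010 to 39342987), rose by 0.22 ± 0.08 (edgeR adjusted p = 0.0272). HNRNPM, a splicing regulator that binds GU-rich RNA (chromosome 19, 8509651 to 8553998), rose by 0.25 ± 0.09 (edgeR adjusted p = 0.0250) although the lowest amiloride library, at 436 CPM, lay under the highest DMSO library, at 437 CPM. HNRNPDL had 399, 407 and 387 CPM with amiloride and 338, 329 and 348 CPM with DMSO (0.24 ± 0.06, edgeR adjusted p = 0.00536). HNRNPD changed by -0.01 ± 0.09 (edgeR adjusted p = 0.935).

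HNRNPR, a paralog of SYNCRIP that binds messenger RNA in nucleus and cytoplasm (chromosome 1, 23630264 to 23670829), had 373, 347 and 345 CPM in KMS12-BM with amiloride and 595, 640 and 648 CPM with DMSO. The groups did not overlap, and the log2 fold change was -0.82 ± 0.07 (edgeR adjusted p = 1.31e-06). HNRNPU, also called scaffold attachment factor A, binds nuclear RNA and DNA (chromosome 1, 245003940 to 245027862). It had 728, 734 and 769 CPM with amiloride and 940, 1020 and 988 CPM with DMSO (-0.39 ± 0.07, edgeR adjusted p = 0.00021), with no overlap. HNRNPUL1 and HNRNPUL2 are the paralogs of HNRNPU. HNRNPUL2 had 331, 330 and 398 CPM with amiloride and 202, 186 and 195 CPM with DMSO (0.87 ± 0.09, edgeR adjusted p = 3.89e-06). HNRNPUL2 shares 2391 exonic bases on the same strand with the readthrough gene HNRNPUL2-BSCL2, which held 1 to 29 reads per library. The counting mode is not stated, so it is not known whether reads in these shared bases were counted. Their part in the low level of HNRNPUL2 per kilobase was not tested. HNRNPUL1 (chromosome 19, 41768401 to 41813692) had 480 to 515 CPM with amiloride and 464 to 530 CPM with DMSO and changed by 0.03 ± 0.07. Removing a trend with GC content per library moved HNRNPD to -0.43 (edgeR adjusted p = 0.000413) and HNRNPUL1 to 0.36 (edgeR adjusted p = 0.000456), and left the other calls in place with other sizes: 0.20 for HNRNPH1, 0.55 for HNRNPK, 0.59 for HNRNPM, -1.26 for HNRNPR and -0.78 for HNRNPU. Upper-quartile scaling (edgeR adjusted p = 0.116 and 0.0781) and leaving out single libraries ended the calls of HNRNPL (without DMSO replicate 1 or amiloride replicate 2, 0.0925 and 0.105) and HNRNPM (without DMSO replicate 1 or 2 or amiloride replicate 3, 0.0517 to 0.103), and testing without a filter ended that of HNRNPL (0.0537).

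**Figure D3:**
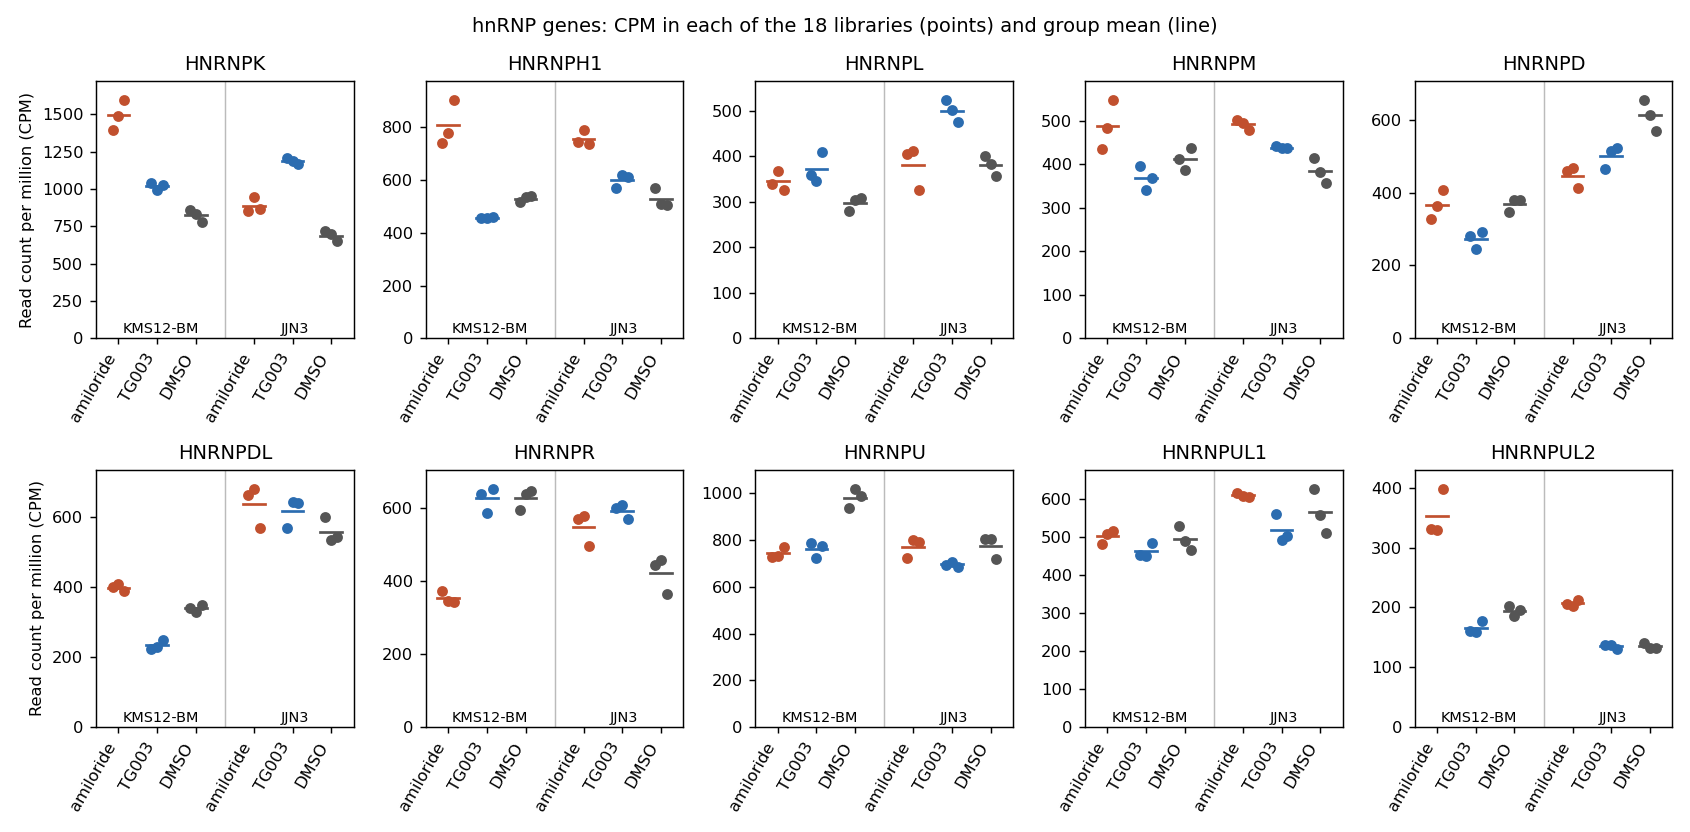
CPM of each of the 10 genes in every library (points) with the group mean (line), KMS12-BM left and JJN3 right in each panel, and amiloride, TG003 and DMSO in that order. In KMS12-BM with amiloride, HNRNPR sits at 345 to 373 CPM, under all other libraries except 1 JJN3 DMSO library at 366 CPM, and HNRNPK at 1394 to 1594 CPM, above all other libraries.

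In JJN3 with amiloride at 0.4 mM, 5 of the 10 genes rose, 1 fell and 4 were not called, with a median log2 fold change of 0.26 against -0.03 over all genes; 43.6% of 15704 genes were called, 19.7% higher and 23.9% lower. HNRNPUL2, HNRNPH1 and HNRNPK rose, together with HNRNPR and HNRNPM, and HNRNPD fell. HNRNPUL2 had 206, 203 and 213 CPM with amiloride and 141, 133 and 133 CPM with DMSO (0.60 ± 0.06, edgeR adjusted p = 1.93e-05). HNRNPH1 had 744, 788 and 736 CPM with amiloride and 571, 509 and 505 CPM with DMSO (0.50 ± 0.07, edgeR adjusted p = 0.000139). HNRNPK had 851, 945 and 863 CPM with amiloride and 716, 699 and 650 CPM with DMSO. None of these 3 genes had overlapping groups, for which no share over all genes was counted. The log2 fold change of HNRNPK was 0.35 ± 0.07 (edgeR adjusted p = 0.00113), or 0.25 ± 0.07 with its pseudogenes added.

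HNRNPR, which fell in KMS12-BM, had 570, 578 and 497 CPM in JJN3 with amiloride and 444, 460 and 366 CPM with DMSO (0.36 ± 0.09, edgeR adjusted p = 0.00567). The lowest amiloride library lay above the highest DMSO library. HNRNPM had 501, 495 and 479 CPM with amiloride and 413, 381 and 356 CPM with DMSO (0.35 ± 0.07, edgeR adjusted p = 0.00164). HNRNPD, the AU-rich element binding protein, had 459, 468 and 412 CPM with amiloride and 654, 612 and 569 CPM with DMSO, with no overlap (-0.47 ± 0.08, edgeR adjusted p = 0.000489). Its paralog HNRNPDL changed by 0.18 ± 0.09 and was not called (edgeR adjusted p = 0.114); without JJN3 amiloride replicate 3 it was (0.26, edgeR adjusted p = 0.0258). HNRNPL (-0.01 ± 0.09), HNRNPU (-0.02 ± 0.07) and HNRNPUL1 (0.10 ± 0.09) were not called, and their groups overlapped.

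The responses to amiloride differed between the lines, KMS12-BM minus JJN3, in 4 of the 10 genes (2 higher, 2 lower), where 43.2% of 17772 genes were called, 21.6% in each direction. HNRNPR had the largest difference, -1.19 ± 0.12 on the log2 scale (edgeR adjusted p = 1.14e-07), its responses having opposite signs. HNRNPK rose further in KMS12-BM (difference 0.50 ± 0.10, edgeR adjusted p = 0.000218), the difference of HNRNPU, which was called in KMS12-BM (-0.39) and not in JJN3 (-0.02), was -0.38 ± 0.09 (edgeR adjusted p = 0.00201), and HNRNPD differed by 0.45 ± 0.12 (edgeR adjusted p = 0.00564). For HNRNPUL2 the difference was 0.26 ± 0.10 (edgeR adjusted p = 0.0541), and the other 5 genes had adjusted p from 0.172 to 0.750. With the GC trend removed, the difference of HNRNPU was -0.70 (edgeR adjusted p = 6.26e-06), the differences of HNRNPD (0.11, edgeR adjusted p = 0.511) and HNRNPK (0.23, edgeR adjusted p = 0.109) were no longer called and that of HNRNPUL2 was (0.41, edgeR adjusted p = 0.00329); with the consecutive library numbers as a replicate block HNRNPUL2 was also called (0.25, edgeR adjusted p = 0.0454). KMS12-BM received 0.1 mM amiloride and JJN3 0.4 mM, so line and dose cannot be told apart.

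**Figure D4:**
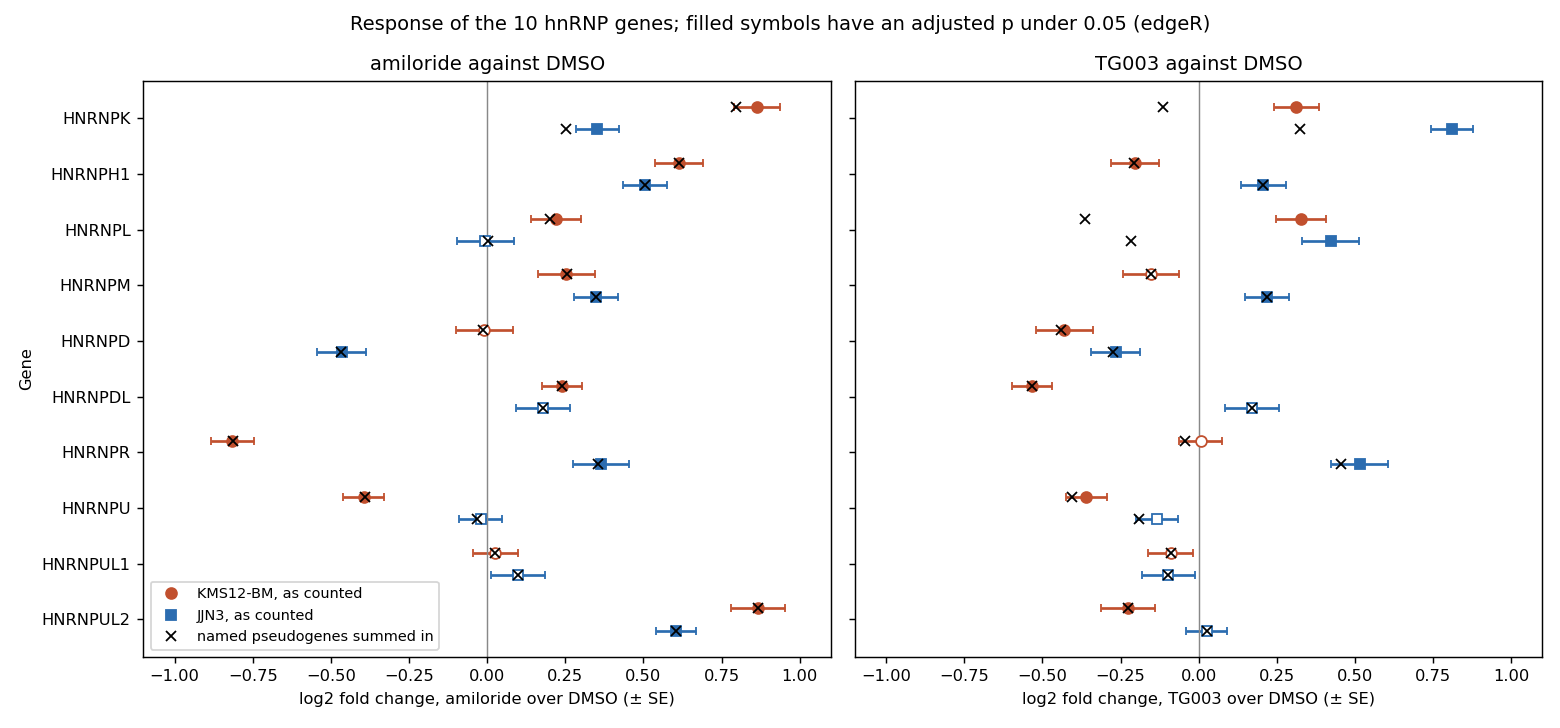
Log2 fold change over DMSO (± SE) of each gene with amiloride (left) and TG003 (right) in KMS12-BM (circles) and JJN3 (squares); filled symbols have an adjusted p under 0.05 in edgeR, and crosses give the value with named pseudogenes added. HNRNPR lies at -0.82 and 0.36 in the 2 lines with amiloride, and the crosses of HNRNPL lie at -0.36 and -0.22 with TG003, on the other side of 0 from the values as counted.

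TG003 was set against DMSO in KMS12-BM at 0.4 mM. As counted, 2 of the 10 genes rose, 5 fell and 3 were not called (median log2 fold change -0.18, all genes -0.03), where 58.6% of 15765 genes were called, 26.9% higher and 31.7% lower. With named pseudogenes added, 0 rose, 6 fell and 4 were not called in edgeR (median -0.22). The genes that fell either way were HNRNPDL, HNRNPD, HNRNPU, HNRNPUL2 and HNRNPH1.

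HNRNPDL had 224, 227 and 247 CPM in KMS12-BM with TG003 and 338, 329 and 348 CPM with DMSO (-0.53 ± 0.06, edgeR adjusted p = 2.73e-05). HNRNPD had 281, 245 and 293 CPM with TG003 and 347, 380 and 381 CPM with DMSO (-0.43 ± 0.09, edgeR adjusted p = 0.00187). Both AU-rich element binding proteins were thus lower in every TG003 library than in any DMSO library. HNRNPU had 790, 722 and 775 CPM with TG003 and 940, 1020 and 988 CPM with DMSO (-0.36 ± 0.07 as counted, -0.41 ± 0.06 with its pseudogene added, edgeR adjusted p = 0.000634 and 0.000243). HNRNPH1 had 456, 456 and 459 CPM with TG003 and 516, 534 and 539 CPM with DMSO (-0.20 ± 0.08, edgeR adjusted p = 0.0368). HNRNPUL2 had 160, 159 and 177 CPM with TG003 and 202, 186 and 195 CPM with DMSO (-0.23 ± 0.09, edgeR adjusted p = 0.0394). The calls of HNRNPH1 and HNRNPUL2 were each lost with upper-quartile scaling (edgeR adjusted p = 0.136 and 0.135; values -0.13 and -0.15) and on leaving out 5 of the 6 libraries in turn: for HNRNPH1 all but DMSO replicate 1 (0.0750 to 0.0949), and for HNRNPUL2 all but TG003 replicate 3 (0.0538 to 0.115). With the GC trend removed HNRNPH1 was at -0.33 (edgeR adjusted p = 0.00143).

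HNRNPK and HNRNPL were the genes called as counted whose sign depended on the pseudogenes. HNRNPL had 360, 345 and 409 CPM as counted in KMS12-BM with TG003 and 280, 303 and 308 CPM with DMSO (0.33 ± 0.08, edgeR adjusted p = 0.00418). With HNRNPLP1 and HNRNPLP2 added, its mean was 372 ± 33.2 CPM with TG003 and 481 ± 2.75 CPM with DMSO (SD), and the change was -0.36 ± 0.07 (edgeR adjusted p = 0.00101). HNRNPK had 1040, 990 and 1025 CPM as counted with TG003 and 861, 834 and 777 CPM with DMSO (0.31 ± 0.07, edgeR adjusted p = 0.00305). With its 5 pseudogenes added, the change was -0.11 ± 0.07 and was not called (edgeR adjusted p = 0.170); as counted with the GC trend removed it was 0.20 (edgeR adjusted p = 0.0333). HNRNPR, at 588 to 654 CPM with TG003 and 595 to 648 CPM with DMSO, changed by 0.01 ± 0.07 as counted and by -0.04 ± 0.07 with its copies. HNRNPM (-0.15 ± 0.09) and HNRNPUL1 (-0.09 ± 0.07) were not called.

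In JJN3 with TG003 at the same dose, 5 of the 10 genes rose, 1 fell and 4 were not called as counted (median 0.19, all genes -0.04), where 58.3% of 15704 genes were called, 26.2% higher and 32.1% lower. With named pseudogenes added, 4 rose, 3 fell and 3 were not called (median 0.10). HNRNPK had 1204, 1188 and 1167 CPM as counted with TG003 and 716, 699 and 650 CPM with DMSO (0.81 ± 0.07, edgeR adjusted p = 3.32e-07). The rise was 0.32 ± 0.07 with its pseudogenes added (edgeR adjusted p = 0.000997). HNRNPL had 524, 503 and 475 CPM as counted with TG003 and 401, 383 and 357 CPM with DMSO. It rose by 0.42 ± 0.09 as counted (edgeR adjusted p = 0.00154) and changed by -0.22 ± 0.08 with its pseudogenes added (edgeR adjusted p = 0.0355). HNRNPL therefore had opposite called directions under the 2 ways of counting in both lines.

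HNRNPR had 600, 609 and 572 CPM in JJN3 with TG003 and 444, 460 and 366 CPM with DMSO, with no overlap (0.51 ± 0.09 as counted, 0.46 ± 0.09 with copies, edgeR adjusted p = 0.0003 and 0.000697). HNRNPM had 441, 437 and 437 CPM with TG003 and 413, 381 and 356 CPM with DMSO (0.22 ± 0.07, edgeR adjusted p = 0.0174). HNRNPH1 had 569, 618 and 612 CPM with TG003 and 571, 509 and 505 CPM with DMSO (0.21 ± 0.07, edgeR adjusted p = 0.0240), with 1 TG003 library inside the DMSO range. HNRNPD fell in JJN3 too, with 465, 514 and 522 CPM with TG003 and 654, 612 and 569 CPM with DMSO (-0.27 ± 0.08, edgeR adjusted p = 0.0109). HNRNPU had 694, 707 and 687 CPM with TG003 and 804, 805 and 721 CPM with DMSO. Its libraries did not overlap, but the change was not called as counted (-0.13 ± 0.07, edgeR adjusted p = 0.111) and was called with its pseudogene added (-0.19 ± 0.07, edgeR adjusted p = 0.0310), with the GC trend removed (0.0267) or without DMSO replicate 3 (0.0495). HNRNPDL (0.17 ± 0.09), HNRNPUL1 (-0.10 ± 0.09) and HNRNPUL2 (0.03 ± 0.06) were not called. The call of HNRNPH1 was lost with the GC trend removed (edgeR adjusted p = 0.0984) and without DMSO or TG003 replicate 2 or 3 (0.0733 to 0.0960), and that of HNRNPM without DMSO replicate 2 or 3 (0.0559 and 0.0694).

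The TG003 dose was the same in both lines. Responses differed between the lines for 5 of the 10 genes, 0 higher and 5 lower in KMS12-BM minus JJN3, where 13.9% of 17772 genes were called (7.13% higher, 6.80% lower). The 5 were HNRNPDL (-0.68 ± 0.11, edgeR adjusted p = 0.000347), HNRNPR (-0.48 ± 0.12, 0.00812), HNRNPK (-0.47 ± 0.10, 0.00231), HNRNPH1 (-0.39 ± 0.10, 0.0151) and HNRNPM (-0.35 ± 0.11, 0.0475). With copies added, HNRNPK differed by -0.41 ± 0.09 and HNRNPR by -0.47 ± 0.12, and both were still called. HNRNPH1 was called in both lines with opposite signs, HNRNPDL was called in KMS12-BM alone and HNRNPM and HNRNPR in JJN3 alone. On leaving out single libraries, the HNRNPH1 call was lost in 5 of 6 fits in KMS12-BM and 4 of 6 in JJN3. The HNRNPM call in JJN3 was lost in 2 of 6. The HNRNPM difference was lost in 9 of the 12 fits that left out a library (edgeR adjusted p up to 0.132), all but those without KMS12-BM DMSO replicate 2, KMS12-BM TG003 replicate 1 or JJN3 DMSO replicate 1. It was also lost under 3 other scalings and without a filter (0.0621 to 0.0957). The same held with the GC trend removed and the replicate block together (edgeR adjusted p = 0.0568). Adding pseudogenes under the scaling without mitochondrial genes, processed pseudogenes and the 10 most abundant genes ended the call too (edgeR adjusted p = 0.0959).

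Other hnRNP and hnRNP-like genes were examined as a list of 24, all present in the files. With amiloride, 8 rose and 6 fell in KMS12-BM, and 9 rose and 4 fell among 23 tested in JJN3; the list's median log2 fold changes were 0.08 and 0.11, against -0.02 and -0.03 over all genes. In both directions together this is 14 of 24 in KMS12-BM and 13 of 23 in JJN3, where 68.7% and 43.6% of all genes were called. HNRNPLL, the lymphoid paralog of HNRNPL, rose with amiloride in both lines, to 55.5 ± 1.66 CPM in KMS12-BM against 32.0 ± 3.11 with DMSO (SD; 0.80 ± 0.09, edgeR adjusted p = 7.58e-06), and to 93.8 ± 18.3 CPM in JJN3 against 64.1 ± 4.92 with DMSO (0.54 ± 0.12, edgeR adjusted p = 0.00295). In KMS12-BM the other named changes were PTBP2, the neuronal polypyrimidine tract binding protein (1.25 ± 0.17), PCBP3 (-1.13 ± 0.18) and HNRNPA1 (-0.69 ± 0.10). PCBP3 was low, at 1.94 ± 0.429 CPM with amiloride and 4.28 ± 0.668 with DMSO (SD). Named pseudogenes of HNRNPA1 took 54.8% to 62.75% of the reads of gene and copies in amiloride libraries. In JJN3, PCBP4 (-0.75 ± 0.12) and RBMX (-0.38 ± 0.08) fell. With TG003, 6 rose and 10 fell in KMS12-BM (median -0.09), and 7 rose and 4 fell of 23 in JJN3 (median -0.06), where 58.6% and 58.3% of all genes were called and the medians over all genes were -0.03 and -0.04. PCBP1, a poly(C)-binding relative of HNRNPK, fell in both, by 0.70 ± 0.07 on the log2 scale in KMS12-BM and by 0.39 ± 0.06 in JJN3. HNRNPAB fell in KMS12-BM (-0.82 ± 0.09), HNRNPA0 fell in JJN3 (-0.27 ± 0.06), and PCBP3 rose in KMS12-BM (1.45 ± 0.16). HNRNPA1 and HNRNPA3 had the largest values as counted with TG003 (HNRNPA1 2.47 ± 0.11 in KMS12-BM and 2.37 ± 0.08 in JJN3, HNRNPA3 1.59 ± 0.09 in JJN3), but their named pseudogenes held 0.985% to 2.08% and 0.365% to 0.482% of the reads of gene and copies with TG003, against 59.1% to 63.3% and 44.8% to 46.2% with DMSO.

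Of 24 nuclear RNA-binding proteins associated with hnRNPs, 23 were in the files. With amiloride, 11 rose and 6 fell in KMS12-BM, and 7 rose and 7 fell in JJN3; the list's median log2 fold changes were 0.19 and -0.06, against -0.02 and -0.03 over all genes, of which 68.7% and 43.6% were called. The paraspeckle component PSPC1 (1.10 ± 0.12) and the muscleblind splicing regulator MBNL2 (1.10 ± 0.12) rose in KMS12-BM, and RBFOX2 (-0.87 ± 0.29) and CELF2 (-0.40 ± 0.08) fell. RBFOX2 was very low there, at 0.839 ± 0.220 CPM with amiloride and 1.54 ± 0.349 with DMSO (SD). In JJN3 the helicase DHX9 (0.84 ± 0.09) and the scaffold attachment factor SAFB (0.83 ± 0.09) rose, and MBNL2 (-0.49 ± 0.09) and CELF2 (-0.37 ± 0.09) fell. With TG003, 6 rose and 5 fell in KMS12-BM (median 0.00), and 9 rose and 5 fell in JJN3 (median 0.18), where 58.6% and 58.3% of all genes were called and the medians over all genes were -0.03 and -0.04. SAFB2 rose in both lines (0.80 ± 0.09 in KMS12-BM, 1.03 ± 0.08 in JJN3), FUBP1 rose in KMS12-BM (0.74 ± 0.08), and CELF2 (-0.43 ± 0.08) and SFPQ (-0.40 ± 0.08) fell there. In JJN3, MBNL2 (-0.36 ± 0.09) and KHDRBS1 (-0.33 ± 0.07) fell, and YBX1 rose to 1562 ± 60.8 CPM with TG003 against 795 ± 30.2 with DMSO (SD) as counted, with 0.164% to 0.208% of its reads in named pseudogenes, against 42.1% to 47.1% with DMSO.

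The 10 genes did not move as a block over the 18 libraries. As a description, log2 CPM of HNRNPH1 and HNRNPM had a Pearson r of 0.92 and that of HNRNPD and HNRNPDL 0.86, the highest among pairs of members. The lowest were -0.70 for HNRNPL and HNRNPU, on reads as counted, and -0.52 for HNRNPH1 and HNRNPR. The 18 libraries fall into 6 groups and share depth and composition within them, so these values describe the groups. On reads as counted, pseudogenes left aside, among 9974 other protein-coding genes with at least 5 CPM, the one most like each member was ADAP2 for HNRNPDL (r = 0.98), DNTTIP2 for HNRNPH1 (0.98), MUL1 for HNRNPUL2 (0.98), DNAJB6 for HNRNPK (0.97), ZYG11A for HNRNPD (0.97), TIPIN for HNRNPR (0.94), GEMIN4 for HNRNPU (0.94), TRNAU1AP for HNRNPL (0.92), C19orf53 for HNRNPUL1 (0.92) and DHX9 for HNRNPM (0.88).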

How the data were processed

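Poly(A)-selected RNA was sequenced from a strand-specific kit, per the labels' protocols. Adapters were cut with cutadapt 1.4, reads aligned to hg19 with TopHat2 2.0.11 and counted with HTSeq 0.6.1p1, per the submitters' processing notes; for annotation, counting mode and strand setting, nothing is stated in those sources. The deposited files hold raw read counts for 57905 genes. The 3 deposited normalized tables were not used. Records outside genes were left out. They made up 17.5% to 18.95% per TG003 library and 28.0% to 31.2% in each of the other 12. Among them, records without a gene feature made up 6.42% to 8.17% and 11.4% to 13.55% of all records. Records labelled ambiguous made up 2.465% to 2.84% and 1.65% to 2.35%, in the same order.

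Symbols came from GENCODE (GRCh37) for 43521 genes. Counts were tested in edgeR 4.0.16 (R 4.3.3): filterByExpr with a minimum of 10 and a total of 15, TMM scaling, robust quasi-likelihood F tests, Benjamini-Hochberg over all genes. Each line was fitted with its 9 libraries; differences between lines used all 18. SE is the log2 fold change divided by the square root of F. CPM uses 1 TMM scaling of the 18 libraries. All 10 genes passed the filter. Named beside the members were the 2 largest rises and 2 largest falls called in each list and drug comparison, pseudogenes named after a member, and the gene most correlated with each member. A gene chosen by this rule is not reported here. Members and lists were chosen with earlier results of these data known. The labels share no replicate numbers; libraries with consecutive numbers correlated at -0.063 to 0.168 in their deviations, and over 0.1 in all 3 pairs for TG003 against DMSO in JJN3 (0.113 to 0.137), where the replicate block changed no member's call. No 2 libraries of a group differed by as little as sampling noise (chi-square per degree of freedom 9.27 to 33.2). The limit given for a count of 0 covers counting error only.

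Alternatives were DESeq2's factors, upper-quartile factors, scaling without mitochondrial genes, processed pseudogenes and the 10 most abundant genes, no filter or 1 CPM in 3 libraries, DESeq2 1.42.0, limma 3.58.1 (voom), the replicate block, a GC offset (97.4% of tested genes had a value), the compared groups alone, pseudogenes summed, and single libraries left out. Summing pseudogenes of every class was chosen after seeing the data.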

Additional observations from a re-analysis of the deposited data

Results flagged for a closer look

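The response to amiloride differed between the lines, by the test of the difference in edgeR, for HNRNPD (KMS12-BM minus JJN3, 0.4488 on the log2 scale), HNRNPK (0.5042), HNRNPR (-1.186) and HNRNPU (-0.381). KMS12-BM received 0.1 mM and JJN3 0.4 mM. The response to TG003, at 0.4 mM in both lines, differed for HNRNPDL (-0.6783), HNRNPH1 (-0.3868), HNRNPK (-0.4724), HNRNPM (-0.3463) and HNRNPR (-0.4836). HNRNPK stands in both sets with opposite signs: its rise with amiloride was larger in KMS12-BM and its rise with TG003, as counted, larger in JJN3. HNRNPR stands in both with the same sign. With the GC trend removed, the amiloride differences of HNRNPK (0.2257) and HNRNPD (0.1139) were not called. With pseudogenes added, HNRNPK did not rise with TG003 in KMS12-BM (-0.1147, not called), and its difference was -0.4137, still called. The HNRNPM difference was lost in 9 of 12 fits that left out a library.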

How the results depend on the processing

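In every alternative run, the counts of the 10 genes called and of all genes called stayed within 1.5 times the values given, in all 7 comparisons. These counts ignore direction, so they cannot show that the same calls were kept. With all pseudogenes added, TG003 in KMS12-BM went from 2 higher and 5 lower to 0 higher and 6 lower. In JJN3 it went from 5 higher and 1 lower to 4 higher and 3 lower. Leaving out single libraries gave 6 to 8 of the 10 genes called with amiloride in KMS12-BM, 6 to 7 in JJN3, 5 to 6 and 4 to 6 with TG003, 4 to 5 for each difference between the lines, and 7 to 8 between the lines with DMSO. Called values that changed sign did so only when pseudogenes were added, for TG003: HNRNPK in KMS12-BM (-0.1148 with processed pseudogenes, -0.1147 with all, -0.1422 with all and the scaling without mitochondrial genes, processed pseudogenes and abundant genes) and HNRNPL with all pseudogenes and with that scaling too (-0.3645 and -0.3924 in KMS12-BM, -0.2155 and -0.2392 in JJN3). The remaining changes of sign were of values called neither way. HNRNPD with amiloride in KMS12-BM was 0.003767 with DESeq2 factors, 0.003746 with DESeq2, 0.01971 with the same scaling, 0.0157 with that and pseudogenes, and 0.004798 with the compared groups alone. HNRNPL with amiloride in JJN3 was 0.006236 with DESeq2 factors, 0.01122 with upper-quartile factors, 0.026 without a filter, 0.00435 with the CPM filter, 0.00621 with DESeq2, 0.01541 with the GC offset, 0.01057 with the GC offset and replicate block, 0.001899 and 0.005699 with pseudogenes, and 0.01704 with the compared groups alone. HNRNPR with TG003 in KMS12-BM was -0.01108 with DESeq2 factors, -0.0111 with DESeq2, -0.02183 with the same scaling, -0.01006 without a filter, -0.04286 with processed and -0.04281 with all pseudogenes, -0.07059 with those and that scaling, -0.1217 with the GC offset and -0.1225 with the block too. HNRNPU with amiloride in JJN3 was 0.01229 without a filter and 0.001902 with the compared groups alone, and HNRNPUL1 with amiloride in KMS12-BM was -0.04543 with upper-quartile factors. For the difference between the lines with amiloride, the GC offset, without and with the replicate block, gave -0.2313 and -0.2315 for HNRNPH1, 0.1692 and 0.1685 for HNRNPM, 0.1852 and 0.1863 for HNRNPUL1, and -0.03702 and -0.03618 for HNRNPDL, which was -0.01206 with upper-quartile factors. Beyond the construction of the sums, the cause was not tested.

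On leaving out single libraries, the values that changed sign ranged with amiloride from -0.08878 to 0.0642 (HNRNPD) and -0.02884 to 0.07768 (HNRNPUL1) in KMS12-BM and from -0.06545 to 0.09676 (HNRNPL) and -0.06691 to 0.01212 (HNRNPU) in JJN3. They ranged from -0.03267 to 0.04392 for HNRNPR with TG003 in KMS12-BM, from -0.02815 to 0.09797 for HNRNPDL in the amiloride difference, from -0.04674 to 0.09312 for HNRNPUL1 in the TG003 difference, and from -0.01082 to 0.07099 for HNRNPH1 between the lines with DMSO. The replicate block alone changed 1 call, HNRNPUL2 in the amiloride difference (0.2541). With the GC offset and the block, HNRNPUL1 with amiloride in JJN3 was called (0.1609, edgeR adjusted p = 0.0482).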
